A study of Mus musculus with 30 samples.

Results

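Chemokines are small secreted proteins that draw leukocytes along a concentration gradient, and their receptors sit in the cell membrane and signal through G proteins. Names follow the spacing of conserved cysteines in the ligand, so Ccl ligands bind Ccr receptors and Cxcl ligands bind Cxcr receptors. In mammary tumours, tumour cells, fibroblasts and infiltrating leukocytes are all known sources of these ligands. The genes described here are the mouse chemokines and chemokine receptors on 1 microarray platform. They were chosen by symbol (Ccl, Cxcl, Ccr or Cxcr with a number, and Cx3cl1, Cx3cr1, Xcl1 and Xcr1), from probes annotated to 1 gene, with a measured value on at least 20 of 30 arrays. Of 51 candidate probes 45 met this rule, 31 for ligands and 14 for receptors, among 22800 rows in all, of which 18923 entered the tests. The probes for Ccl1 (14 arrays), Ccl28 (14), Ccr8 (19), Cxcl2 (16), Cxcr6 (11) and Xcl1 (18) fell short and were not analysed further.

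The series comprised 15 extracts of total RNA, described under mammary carcinomas of c-Myc transgenic mice. Each extract was hybridised on 2 dual-channel arrays, once in either channel, against the reference RNA GES03-0001. Neither strain and age nor the promoter of the transgene nor what the reference was pooled or drawn from is stated in the sources used here. Extract codes such as CA02-579-A, shortened here to 579-A, hold a number and a letter, with 10 numbers in all, 5 extracts under 579 and 2 under 546. Both arrays of 550-A and 561-B were described under tumour progression, both arrays of 12 extracts under epithelial to mesenchymal transition, and 595-A carried one description on each array. No label ties an extract to an animal, so the p-values below speak of the spread among these extracts, part of which may be technical.

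Values are log2 ratios of an extract and the reference. Which of them is on top is not settled, because neither dyes nor a numerator are labelled. After arrays with the extract in channel 2 were turned, the Myc probe stood at 3.16 ± 0.11 (SE, n = 15 extracts), on one side in 15 of 15 extracts. That side is called the Myc side (positive) and the other the opposite side (negative). Going by the transgene alone, positive values are likely those where the extract was above the reference, and all signs below would change together if they were not. Arrays held 13434 to 21991 values and 20 to 45 of the chemokine probes. Extract 546-A lacked 6 of the 45 and had 19 on 1 array, and 548-A lacked 11 and had 18 on 1 array. The errors given here leave out the spread of the reference, which is a single RNA. In RNA from whole tissue fewer cells of a type and less RNA per cell cannot be told apart.

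Measured against the reference, 21 of 45 chemokine and receptor probes differed from 0 in limma at an adjusted p under 0.05. The Myc side held 10 of them and the opposite side 11. Over all 18923 probes 23% were called toward the Myc side and 13.6% toward the opposite side. The 31 ligands divided into 9 toward the Myc side, 10 toward the opposite side and 12 that did not pass. Of the 14 receptors, Ccr2 was called toward the Myc side and Ccr4 toward the opposite side, and 12 did not pass. The median of the 45 means was 0.13, beside 0.10 over all probes tested, so the family was spread to both sides rather than shifted as a whole.

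**Figure D1:**
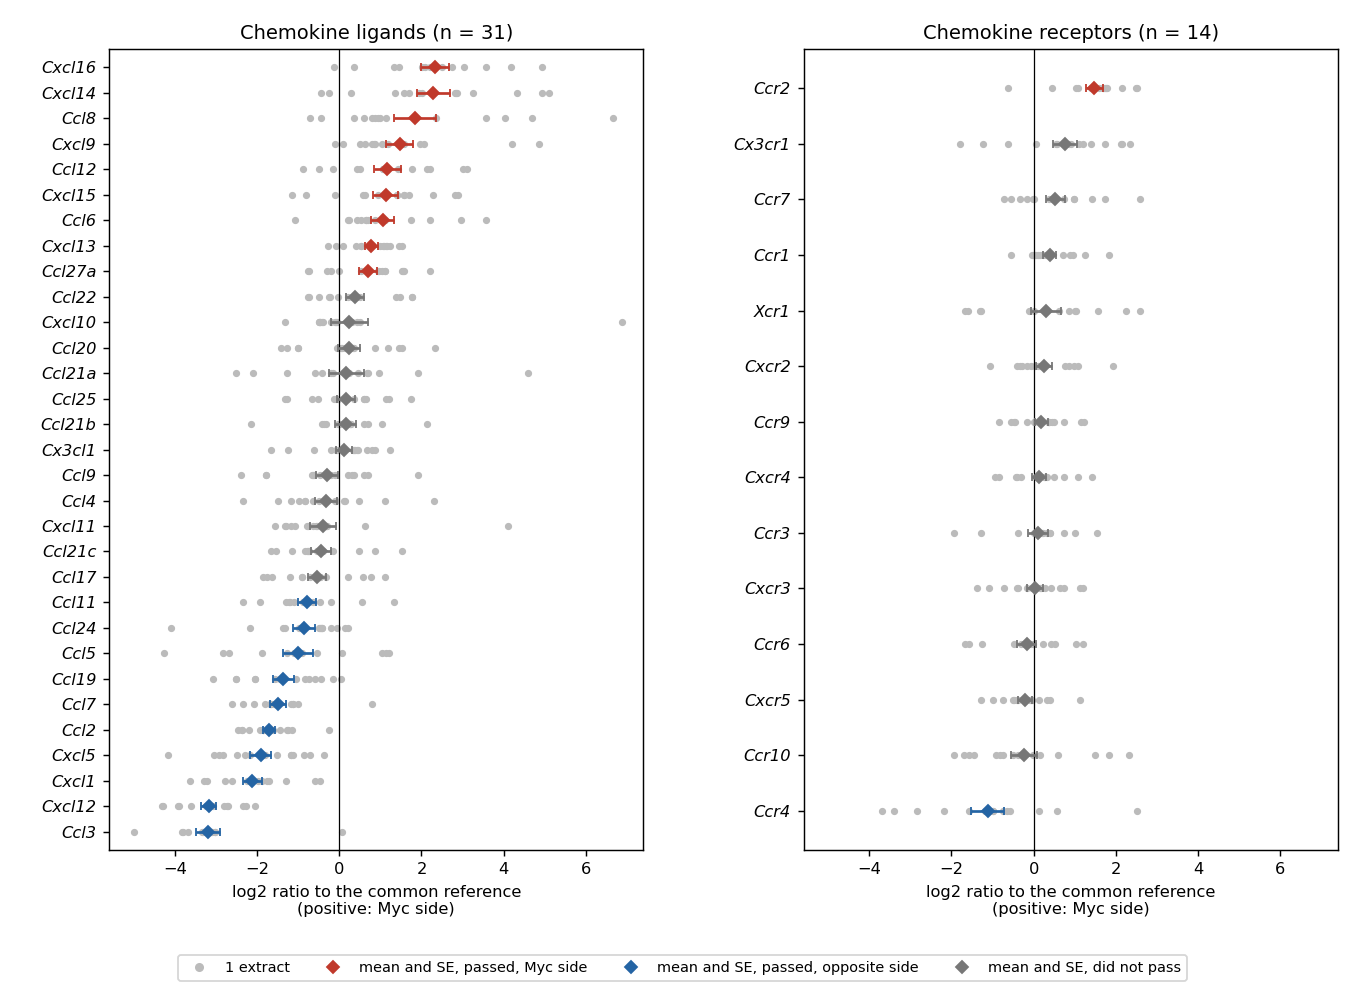
Log2 ratio to the common reference (x axis) of 31 chemokine ligands (left) and 14 receptors (right). Grey points are single extracts and diamonds are means with their SE, coloured by the limma test against 0; Cxcl16 and Cxcl14 stand farthest on the Myc side and Ccl3 and Cxcl12 farthest on the opposite side, while most receptors lie near 0.

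The side of a call depended on the channel that held the extract. With the extract in channel 1 alone, the Myc side held 4 members and the opposite side 17. With it in channel 2 alone, the Myc side held 17 and the opposite side 9. The same held over all probes, of whose calls 35.7% were on the Myc side in channel 1 alone and 78.8% in channel 2 alone, against 62.9% in both together. Averaging the paired arrays cancels a channel effect that is equal in both, but not where 1 array of the pair is missing. Even after turning, paired arrays of 1 extract were less alike than arrays of different extracts in one orientation were at their median. In each orientation alone 10 members passed on the same side: Cxcl14, Cxcl16 and Ccr2 on the Myc side, and Ccl3, Cxcl12, Cxcl1, Cxcl5, Ccl2, Ccl7 and Ccl11 on the opposite side. Those 10 also passed under each other alternative run for them. The lymphoid chemokine Cxcl13 passed on the Myc side at 0.78 and turned to -0.52 with the extract in channel 1, against 1.96 in channel 2. Of members that did not pass with both orientations, 5 passed in 1 orientation against the sign of their mean, Ccl20 (-1.15), Ccl21b (-1.47), Ccl22 (-0.83) and Xcr1 (-1.30) in channel 1, and Cxcr5 (0.83) in channel 2.

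**Figure D2:**
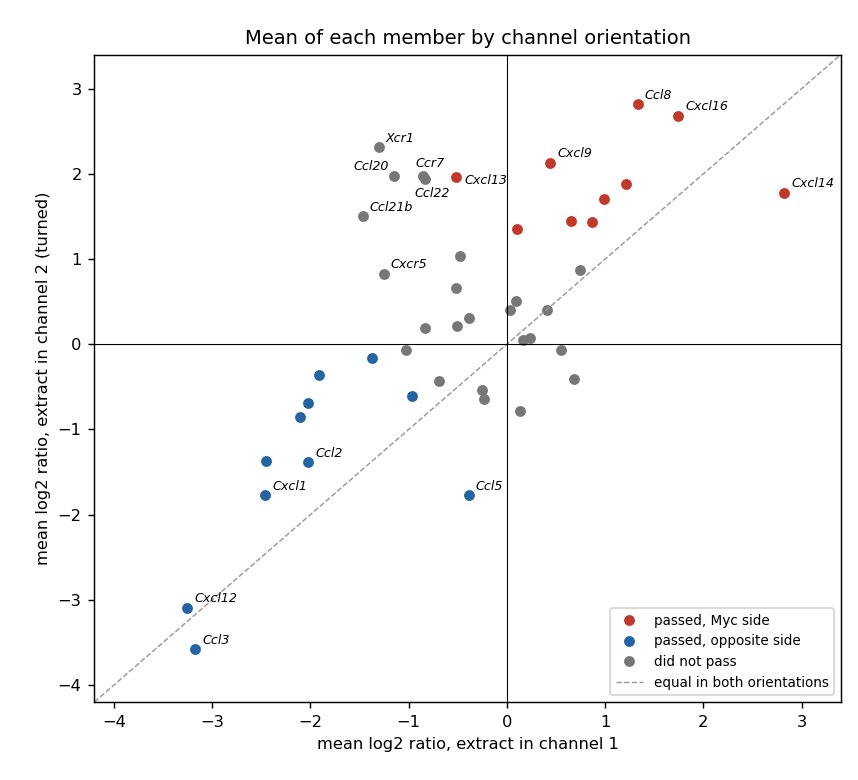
Mean log2 ratio of each of the 45 members on arrays with the extract in channel 1 (x axis) and, turned to the same side, in channel 2 (y axis). Colour gives the test on both orientations together, and the dashed line marks equal values; Ccl3, Cxcl12, Cxcl1 and Ccl2 lie low on both axes, and Xcr1, Ccl20, Ccl22, Ccr7 and Cxcl13 lie left of 0 on one axis and above 0 on the other.

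Farthest on the Myc side stood Cxcl16, a membrane-anchored ligand of Cxcr6 that is also shed in soluble form. It ran from -0.14 in 579-F over a median of 2.26 to 4.93 in 546-A, with a mean of 2.32 ± 0.34 (SE, n = 14 extracts), a 5.01-fold difference (limma adjusted p = 4.79e-05). It was positive in 13 of 14 extracts, with no value for 548-A. Cxcl14, a ligand made by many normal epithelia, ran from -0.44 in 595-A over a median of 2.01 to 5.09 in 540-B, with a mean of 2.29 ± 0.41 (SE, n = 15), a 4.88-fold difference (adjusted p = 0.000259). High values stood in 540-B (6.71 and 3.47 on its arrays), 550-A (4.93, on 1 array) and 546-A (4.33). Just below 0 lay 595-A and 579-D (-0.26).

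Ccl8, a monocyte chemoattractant whose mouse form signals through Ccr8, ran from -0.70 in 579-F over a median of 0.96 to 6.66 in 550-A, with a mean of 1.84 ± 0.52 (SE, n = 14; adjusted p = 0.0102). Its 4 high extracts were 550-A, 540-B (4.69), 546-B (4.03) and 561-B (3.57), while the others lay at or below 2.35. Paired arrays of some others disagreed, as in 597-B (-0.55 and 5.24) and 579-D (-1.95 and 4.23). The residual SD was 2.10, against an SD of 2.13 over extract means. Ccl8 did not pass the F-test between extracts described below (adjusted p = 0.44), nor did it pass in each orientation alone. Ccl8 had no value in 546-A. Ccr2, the receptor that brings monocytes out of the bone marrow, ran from -0.62 in 546-A over a median of 1.69 to 2.52 in 597-B, with a mean of 1.48 ± 0.20 (SE, n = 15; adjusted p = 1.5e-05), and was positive in 14 of 15 extracts.

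Cxcl9, an interferon-inducible ligand of Cxcr3, which activated T cells carry, ran from -0.11 in 567-B over a median of 1.05 to 4.86 in 546-A, with 4.19 in 597-B next. Its mean was 1.47 ± 0.33 (SE, n = 15; adjusted p = 0.00213), but 0.44 with the extract in channel 1 alone, where it did not pass, against 2.13 in channel 2. Ccl12, a mouse ligand of Ccr2, ran from -0.89 in 567-B over a median of 1.07 to 3.12 in 540-B, with a mean of 1.17 ± 0.33 (SE, n = 13; adjusted p = 0.0101). Its paired arrays differed widely, with a residual SD of 2.71, against an SD of 1.27 over extract means. The remaining ligands past the threshold on this side were Cxcl15 (1.13 ± 0.30), a neutrophil chemoattractant first found in mouse lung, Ccl6 (1.06 ± 0.28), a myeloid chemokine, Cxcl13 (0.78 ± 0.16), which draws B cells, and Ccl27a (0.70 ± 0.22), a chemokine of skin epithelium.

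On the opposite side Ccl3, a macrophage inflammatory protein that binds Ccr1, ran from -5.01 in 561-B over a median of -3.25 to 0.06 in 579-B, with a mean of -3.20 ± 0.29 (SE, n = 13), a 9.16-fold difference (adjusted p = 5.72e-07). Ccl3 was measured on 21 arrays, and 5 of its 13 extracts, 579-B among them, rested on 1 array. All of these 5 values came from channel 1, so channel 2 alone held 8 extracts. The 12 extracts other than 579-B were all at or below -3.02. Cxcl12, the stromal ligand of Cxcr4, ran from -4.33 in 567-B over a median of -3.15 to -2.06 in 597-B, with a mean of -3.17 ± 0.18 (SE, n = 15), a 9.03-fold difference (adjusted p = 7.18e-10). It was measured on all 30 arrays, lay on the opposite side in 15 of 15 extracts and averaged -3.25 and -3.09 in the 2 orientations.

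The neutrophil chemoattractants followed. Cxcl1 ran from -3.63 in 579-A over a median of -2.12 to -0.46 in 546-A, with a mean of -2.12 ± 0.23 (SE, n = 15; adjusted p = 1.28e-06). Cxcl5 ran from -4.18 in 548-A over a median of -1.81 to -0.38 in 579-E, with a mean of -1.91 ± 0.26 (SE, n = 15; adjusted p = 1.62e-05). Both were negative in 15 of 15 extracts, and both signal through Cxcr2, whose own probe stood at 0.25 ± 0.19 and did not pass.

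Among the monocyte chemoattractants Ccl2 ran from -2.47 in 595-A over a median of -1.85 to -0.24 in 546-A, with a mean of -1.71 ± 0.15 (SE, n = 15; adjusted p = 1.92e-07). Ccl7 ran from -2.61 in 579-D over a median of -1.58 to 0.79 in 546-A, with a mean of -1.48 ± 0.19 (SE, n = 15; adjusted p = 1.21e-05). Extract 546-A was thus the highest of 15 for Cxcl1, Ccl2 and Ccl7 alike. Ccl2 and Ccl7 bind Ccr2, which lay on the Myc side together with its further ligand Ccl12. The other ligands past the threshold were Ccl19 (-1.36 ± 0.25), which guides cells with Ccr7 to lymph nodes, Ccl5 (-1.01 ± 0.37), made by T cells, and the eosinophil chemoattractants Ccl24 (-0.86 ± 0.27) and Ccl11 (-0.79 ± 0.22). Ccl5 ran from -4.27 in 547-A to 1.20 in 548-A, with 4 extracts above 0. The arrays of 547-A disagreed (-1.12 and -7.43), and the value in 548-A rested on 1 array. Its mean was -0.39 in channel 1 and -1.77 in channel 2.

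The remaining 12 ligands did not pass. Cxcl10 and Cxcl11, which share Cxcr3 with Cxcl9, stood at 0.24 ± 0.45 and -0.40 ± 0.33, and 1 extract, described below, stood apart for both. The macrophage inflammatory proteins Ccl4 (-0.32 ± 0.27) and Ccl9 (-0.30 ± 0.27) lay near 0, unlike Ccl3. Ccl17 (-0.54 ± 0.22, adjusted p = 0.0713) and Ccl22 (0.39 ± 0.21, adjusted p = 0.181), both ligands of Ccr4, had means of opposite sign. Ccl20 (0.24 ± 0.27), the ligand of Ccr6, Ccl25 (0.16 ± 0.22), the gut and thymus ligand of Ccr9, and the membrane-bound Cx3cl1 (0.11 ± 0.20) completed this group with the Ccl21 genes. Probes annotated to Ccl21a (0.17 ± 0.43), Ccl21b (0.16 ± 0.26) and Ccl21c (-0.44 ± 0.24) belong to near-identical genes, so which of them each probe measured is uncertain. The probe named here Ccl21b carries the symbol Ccl21a in the platform annotation and was matched to Ccl21b by accession.

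Receptor probes held more ratios of small whole numbers than ligand probes. The share of a probe's values that could be written, to 3 decimals, as 1 whole number up to 20 over another, as values of few signal units could, had a median of 54.56% over receptors, 20.69% over ligands and 25% over all probes tested. Whether it bears on the low number of receptors called was not tested. Besides Ccr2, Ccr4 (-1.12 ± 0.40, adjusted p = 0.0382), a receptor of Th2 and regulatory T cells, passed, on 21 arrays, with 7 of its 14 extracts on 1 array. It averaged -1.91 in channel 1 and -0.37 in channel 2, and passed in 6 of 10 alternatives. For Ccr4 76.19% of values were ratios of small whole numbers. Cx3cr1 (0.76 ± 0.30, adjusted p = 0.0541), found on macrophages and NK cells, Ccr1 (0.39 ± 0.16, adjusted p = 0.0643) of myeloid cells and Ccr7 (0.53 ± 0.22, adjusted p = 0.0754) of lymph-node homing cells came next and did not pass. Ccr7 averaged -0.86 in channel 1 and 1.98 in channel 2. The means of the other 9 receptors lay between -0.25 and 0.30: Ccr10 (-0.25), Cxcr5 (-0.21), Ccr6 (-0.17), Cxcr3 (0.04), Ccr3 (0.10), Cxcr4 (0.13), Ccr9 (0.19), Cxcr2 (0.25) and Xcr1 (0.30). Cxcr4, the receptor of Cxcl12, was thus near 0 while its ligand stood at -3.17.

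Many chemokine genes lie side by side, and neighbours in the RefSeq gene order of GRCm38.p6 were on different sides. In the row Ccl2, Ccl7, Ccl11, Ccl12, Ccl8 the first 3 passed on the opposite side and the last 2 on the Myc side. In the row Ccl5, Ccl9, Ccl6, Ccl3, Ccl4, Ccl6 passed on the Myc side (1.06) and Ccl3 next to it on the opposite side (-3.20). Cxcl15 (1.13) passed on the Myc side between Cxcl5 (-1.91) and Cxcl1 (-2.12). It was measured on 21 arrays, with 7 of its 14 extracts on 1 array, and 80.95% of its values were ratios of small whole numbers. Ccl12, Ccl8, Ccl6 and Cxcl15 did not pass in each orientation alone. In the row of receptors, Ccr2 (1.48) passed while Ccr3 (0.10) next to it and Ccr1 (0.39) farther along did not. Values of different probes are set side by side here by their side and their test, since a difference between 2 probes also holds the difference between their responses.

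**Figure D3:**
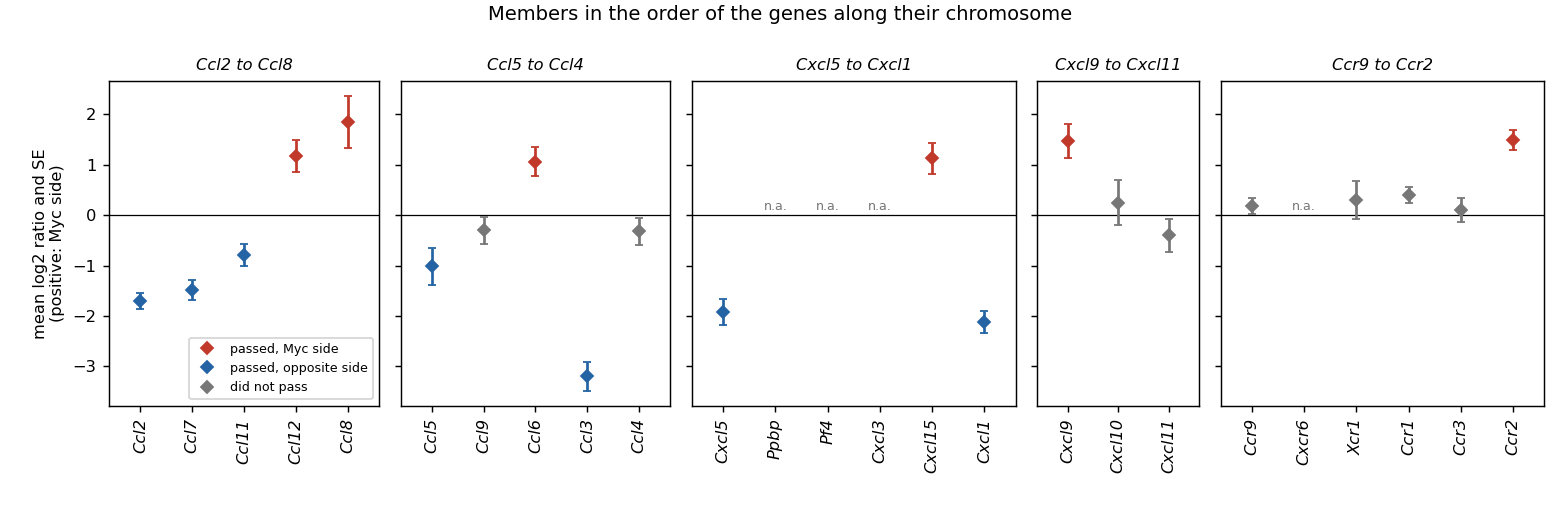
Mean log2 ratio with its SE (y axis) of members placed in the order of the genes on their chromosome, 1 panel per row of neighbours; n.a. marks a gene that is no member. Ccl2, Ccl7 and Ccl11 lie below 0 and Ccl12 and Ccl8 above it, and Cxcl15 lies above 0 between Cxcl5 and Cxcl1.

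Differences between extracts were then tested against the difference of the paired arrays of 1 RNA. Of the 45 probes 5 passed this moderated F-test at an adjusted p under 0.05, all of them ligands: Cxcl10 (adjusted p = 0.0118), Ccl11 (0.0118), Ccl6 (0.0161), Ccl9 (0.0279) and Ccl7 (0.0294). Over all 18923 probes 2.71% were called. At an unadjusted p under 0.05 there were 14 members, with 2652 (14%) of all probes. Cxcl14 (adjusted p = 0.0557), Cxcl11 (0.0699), Ccl2 (0.077) and Cxcl1 (0.0805) came next and did not pass. Those 4 passed too where probes were required on at least 24 arrays and in every extract, which left 28 members and 12888 probes, giving 9 calls. Without 546-A 2 members were called, Ccl6 and Ccl9, in place of 5, and 346 of all probes in place of 513. Over the 6 alternatives run, Ccl6 and Ccl9 passed in 4 each, Cxcl10 in 3, and Ccl11 and Ccl7 in 1 each.

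Cxcl10, induced by interferon in many cell types, ran from -1.32 in 540-B over a median of -0.21 to 6.87 in 546-A. The other 14 extracts all lay at or below 0.51, so 1 extract stood apart. Its paired arrays gave 9.57 and 4.18, where no other array exceeded 0.60. Cxcl11 had the same shape, at 4.11 in 546-A (5.61 and 2.62 on its arrays), against -1.56 to 0.64 in the other extracts. Cxcl9 had its highest extract value in 546-A too (4.86, on 1 array, in channel 2), but 597-B came close at 4.19. The channel 2 array of 597-B was higher for Cxcl9 (5.20) than that of 546-A. Without 546-A the F-test of Cxcl10 gave an adjusted p = 0.603, and over the 6 alternatives run it ranged from 0.00551 to 0.762.

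Further ligands were highest in the same extract among those with a value. Ccl4 stood at 2.30 in 546-A, with 1.10 in 579-D next and -2.34 in 540-B lowest. Ccl7 stood at 0.79, against -2.61 to -1.01 in the other extracts. Ccl11 stood at 1.33, with 0.56 in 561-B next and -2.34 in 548-A lowest. Cxcl16 stood at 4.93 and Ccl2 and Cxcl1 were nearest 0 there, whereas Ccr2 (-0.62) and Ccr4 (-3.70) were lowest there. The values of Cxcl16, Ccr2 and Ccr4 in 546-A each rested on 1 array. For Cxcl16 1 array of 579-A was higher (5.10), and Cxcl16 and Ccr4 had values in 14 extracts. Both arrays of 546-A exceeded every other array for Cxcl10, Cxcl11, Ccl7, Ccl11 and Ccl2. In all, 9 of the 45 members had their highest value in 546-A and 2 their lowest. The share of all probes that were highest in 546-A was not counted. Whether chemokines differ from other probes in this was therefore not tested. Extremes were common in other extracts too, with 4 highest and 9 lowest in 579-F and 1 highest and 8 lowest in 579-D. The second extract of the number 546, 546-B, did not share this: Cxcl10 stood at -0.49, Cxcl11 at -0.58, Ccl4 at -1.50, Ccl7 at -1.13 and Ccl11 at -1.09.

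**Figure D4:**
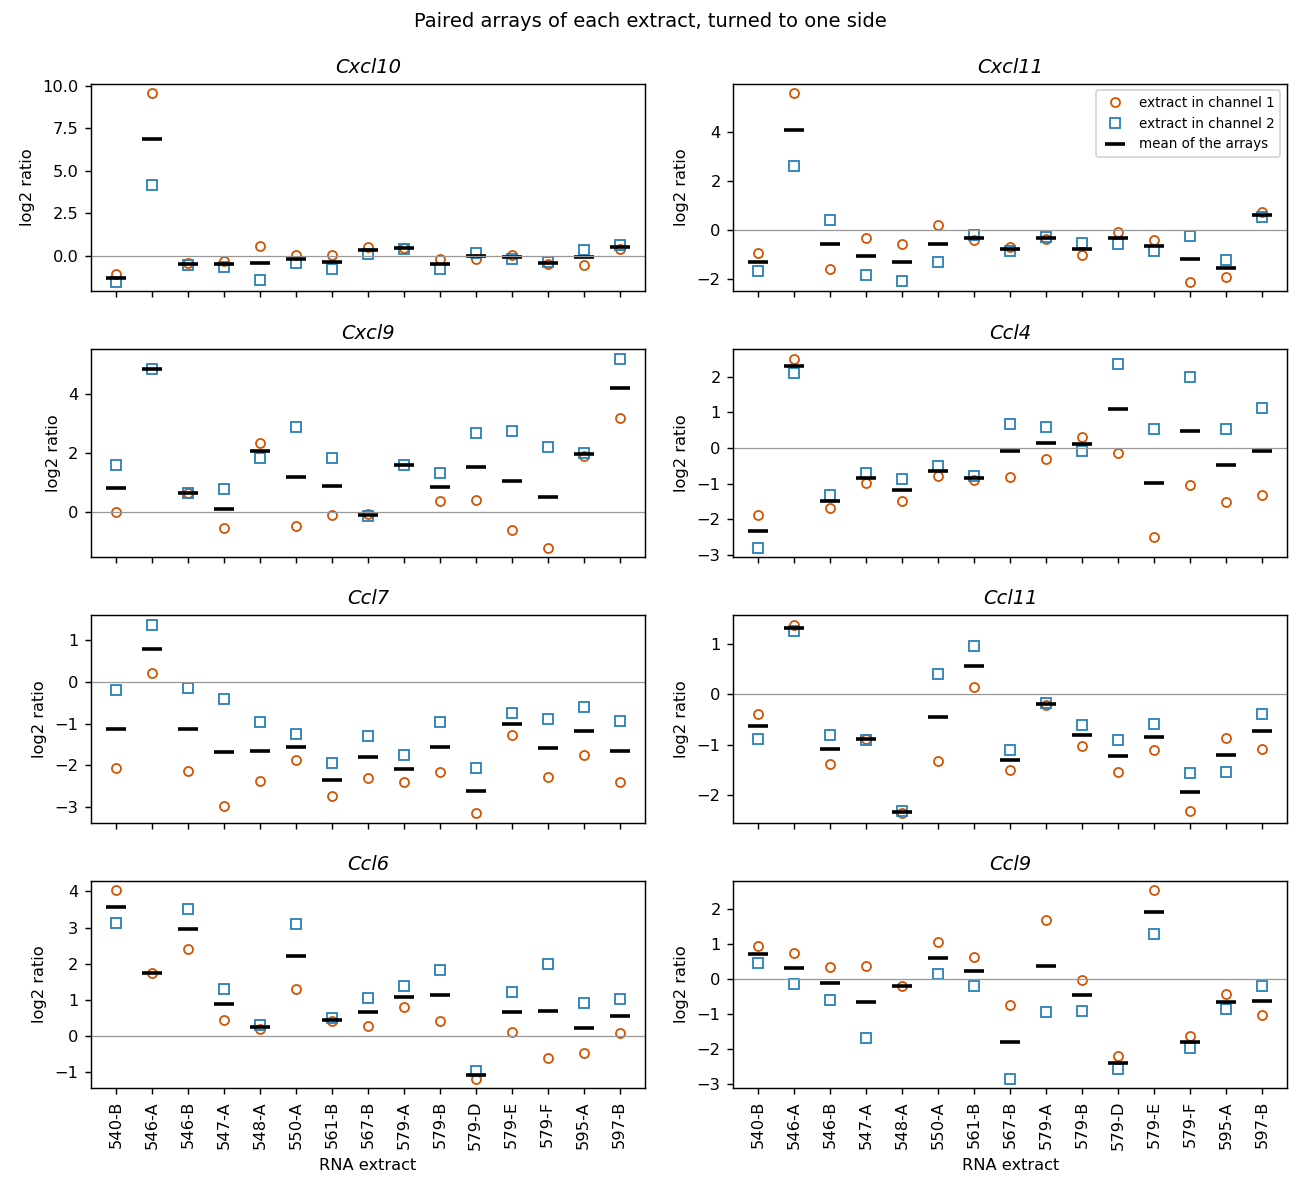
Log2 ratio (y axis) of 8 chemokine ligands in each of 15 RNA extracts (x axis). Circles and squares are the arrays with the extract in channel 1 and channel 2, turned to one side, and bars are their mean; Cxcl10 and Cxcl11 stand high in 546-A on both arrays, and Ccl6 and Ccl9 vary over several extracts.

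Means of several marker and response lists were also highest in 546-A. The mean over 22 interferon response genes was 3.02 there, against -0.54 to 1.98 in the other extracts. The means of 15 macrophage and myeloid genes (1.33, against -0.26 to 1.07), 3 dendritic cell genes (1.71, against -1.16 to 0.68), 17 fibroblast and matrix genes (0.85, against -2.52 to 0.63) and 14 epithelial genes (3.09, against 1.84 to 2.99) were highest there as well. Those of the NF-kB (-0.25), neutrophil (1.07), T and NK cell (0.08), B cell (-0.33) and endothelial genes (0.77) were not, with -0.14, 1.08, 0.37, 0.62 and 1.44 as the highest values elsewhere in this order. The part of these in the chemokine values of 546-A was not tested.

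Ccl6 and Ccl9, myeloid chemokines that bind Ccr1 and neighbour each other in the mouse genome, varied over several extracts and were called with and without 546-A. Ccl6 ran from -1.08 in 579-D over a median of 0.69 to 3.58 in 540-B, with 2.96 in 546-B and 2.20 in 550-A. Ccl9 ran from -2.38 in 579-D over a median of -0.20 to 1.91 in 579-E. The lowest and the highest extract of Ccl9 thus shared the number 579, whose other extracts stood at 0.36 (579-A), -0.46 (579-B) and -1.79 (579-F). Extract 579-D was lowest for both genes, and 540-B, highest for Ccl6, came next after 579-E for Ccl9 (0.71). With the number in place of the extract as the factor no member passed.

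The promoters of Cxcl10 and Cxcl9 are shown because these related ligands both had their highest extract value in 546-A, for Cxcl9 on 1 array. In 597-B they stood apart (0.51 and 4.19). The promoter of Cxcl1 is shown because this gene was among the 3 ligands farthest on the opposite side. Windows of 300 bases (250 before to 50 after the start) were taken from RefSeq on GRCm38.p6, which gave 36 windows for 32 of the 45 members. Searched on both strands were the interferon-stimulated response element (ISRE) as GAAANNGAAA, the interferon-gamma activated site (GAS) as TTCNNNGAA, the TATA box as TATAAA, and the NF-kB motif. Matches to ISRE and NF-kB are in capitals, and neighbouring NF-kB matches overlap.
Cxcl10: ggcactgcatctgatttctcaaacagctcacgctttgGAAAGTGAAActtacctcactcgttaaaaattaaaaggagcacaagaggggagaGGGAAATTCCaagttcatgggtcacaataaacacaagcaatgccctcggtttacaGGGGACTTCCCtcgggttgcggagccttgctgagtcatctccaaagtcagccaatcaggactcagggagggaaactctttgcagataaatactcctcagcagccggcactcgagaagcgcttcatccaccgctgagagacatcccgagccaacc
Cxcl9: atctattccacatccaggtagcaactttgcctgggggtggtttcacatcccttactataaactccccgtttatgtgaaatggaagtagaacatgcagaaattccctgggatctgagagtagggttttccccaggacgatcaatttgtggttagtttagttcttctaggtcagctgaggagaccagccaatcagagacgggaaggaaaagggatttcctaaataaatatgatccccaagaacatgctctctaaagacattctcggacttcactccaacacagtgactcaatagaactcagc
Cxcl1: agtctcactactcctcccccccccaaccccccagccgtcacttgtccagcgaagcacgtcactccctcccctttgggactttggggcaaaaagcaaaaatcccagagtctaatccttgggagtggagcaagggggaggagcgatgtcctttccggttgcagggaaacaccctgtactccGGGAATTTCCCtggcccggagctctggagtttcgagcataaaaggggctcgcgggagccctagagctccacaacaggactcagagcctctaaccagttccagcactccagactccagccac
The Cxcl10 window (chr5:92348840-92349139, minus strand) held an ISRE match at positions -213 to -204 from the start and NF-kB matches beginning at -159, -104 and -103. The Cxcl9 window (chr5:92328030-92328329, minus strand) held neither these nor a GAS match, but 1 TATAAA, and the Cxcl1 window (chr5:90890995-90891294, plus strand) held NF-kB matches beginning at -71 and -70, on opposite strands. ISRE occurred in 3 of 36 member windows (Ccl19, Cxcl10 and Cxcl14), with 3.44% of 32851 windows over all genes. GAS occurred in 3 (8.3% of all windows), NF-kB in 8 (8.46%) and TATAAA in 10 (13.6%). A match describes letters in the window and not a site in use.

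Between the extracts of number 579 and those of other numbers no member passed limma at an adjusted p under 0.05. Over all 18923 probes 0% were called, with 720 probes and 2 members at an unadjusted p under 0.05. These were Cx3cr1, at -0.24 in 5 extracts of 579 and 1.26 in 10 other extracts (difference -1.50 ± 0.53 SE, unadjusted p = 0.0121), and Ccl8, at 0.31 in 579 and 2.69 in 9 other extracts, 546-A having no value (difference -2.38 ± 0.94 SE, unadjusted p = 0.0226). Extracts under tumour progression (550-A and 561-B) were set against the 12 under the other description. Again 0% of 18893 probes were called, with 821 probes and 3 members at an unadjusted p under 0.05. Ccl8 stood at 6.66 in 550-A and 3.57 in 561-B, against a mean of 1.34 in 11 extracts of the other description (difference 3.77 ± 1.22 SE, unadjusted p = 0.00801, adjusted p = 0.917). However, 540-B (4.69) and 546-B (4.03) of the other description exceeded 561-B, so the groups overlap. The others were Cxcr3 (1.17 under progression against -0.12 under the other description, unadjusted p = 0.0184) and Cxcr5 (0.36 under progression against -0.44, unadjusted p = 0.0437).

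For the 29 members with a value in every extract, levels were compared over the 15 extracts with the mean of each of 10 marker and response lists. Of 290 pairs 9 passed a permutation test of Pearson's r after Benjamini-Hochberg adjustment, and 4 also passed with Spearman's rho. Without 546-A and 548-A 1 pair passed, and over 10 number means 3 did. Cxcl14 followed the fibroblast and matrix genes most closely, with r = 0.92 (permutation p = 1e-05, the smallest that the permutations can give, adjusted p = 0.0029) and rho = 0.83 (permutation p = 0.00024, adjusted p = 0.03). Without the 2 extracts farthest from the median of the list, 546-A and 550-A, r was 0.89. It was 0.80 where gene and list were taken from different arrays of an extract and 0.90 over 10 number means. Extracts high for Cxcl14 (540-B, 546-A and, on 1 array, 550-A) were the 3 with a list mean above 0.

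Ccl4 followed the interferon response genes, with r = 0.87 (permutation p = 3e-05, adjusted p = 0.00435) and rho = 0.84 (permutation p = 0.00017, adjusted p = 0.03). Without 546-A and 579-D r was 0.65, and across different arrays 0.56. Cxcl10 did so with r = 0.80 (permutation p = 0.00033, adjusted p = 0.0191) and rho = 0.80 (permutation p = 0.00058, adjusted p = 0.0421). Without 546-A and 579-D r was 0.77, and without 546-A alone 0.63. The interferon list mean of 579-D was 1.98, the second highest, yet Cxcl10 stood at -0.05 there and Ccl4 at 1.10.

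**Figure D5:**
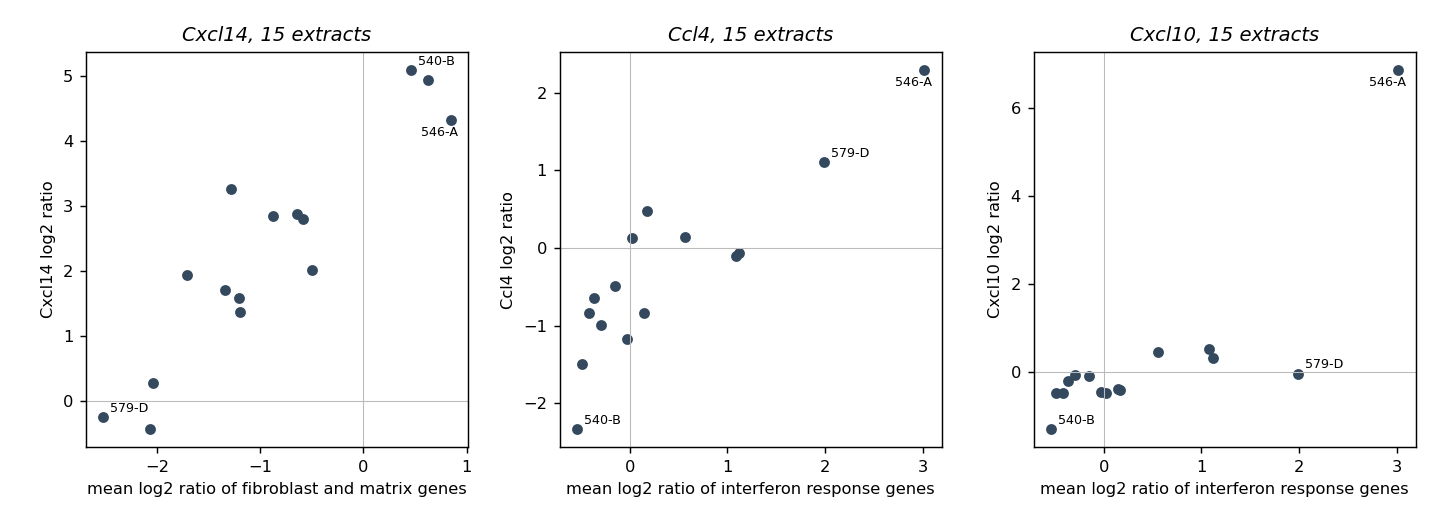
Log2 ratio of Cxcl14, Ccl4 and Cxcl10 (y axes) against the mean log2 ratio of a list of other genes (x axes), with 1 point for each of 15 extracts. Cxcl14 rises over the whole range of the fibroblast and matrix genes, while Cxcl10 is high in 546-A and stays near 0 in 579-D, the extract with the next highest interferon list mean.

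Ccl24 with the B cell genes was the fourth such pair (r = 0.86, permutation p = 0.00026, adjusted p = 0.0191, rho = 0.82, permutation p = 0.00031, adjusted p = 0.03). It rested on shared arrays and on 548-A and 546-B: r was -0.20 across different arrays and 0.51 without those 2 extracts. The 5 pairs that passed with r alone were Cxcl14 with endothelial (r = 0.81) and neutrophil genes (0.76), Ccl6 with fibroblast and matrix genes (0.78), Ccl11 with macrophage genes (0.74) and Ccr10 with NF-kB genes (0.75). Across different arrays they gave 0.51, 0.31, 0.74, 0.60 and 0.01 in this order, so Ccr10 and the NF-kB genes did not go together there.

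Genes whose profile over extracts was most like that of a called member were sought among 417 probes called between extracts. Ccl6 was nearest to Fbln2 (r = 0.83), a matrix glycoprotein, the lysozyme gene Lyz2 (0.82) and Serping1 (0.82), an inhibitor of complement. Without 546-A the same 3 genes gave 0.86, 0.82 and 0.87. The Lyz2 probe in the macrophage list is a different one and was not called between extracts (F-test adjusted p = 0.882), so probes of Lyz2 disagreed. Ccl9 was nearest to Acot7 (0.82), Crip1 (0.80) and Slpi (0.77), a secreted protease inhibitor (0.81, 0.79 and 0.78 without 546-A). Ccl11 was nearest to Ncam1 (0.85), Socs3 (0.82) and Esyt2 (0.80), and without 546-A these gave 0.72, 0.66 and 0.62. Ccl7 was nearest to the inflammatory caspase gene Casp4 (0.90), Ppig (0.88) and Cyrib (0.87), and without 546-A these gave 0.67, 0.56 and 0.55. Cxcl10 was nearest to Atp6v0b (0.97), Met (0.96), the receptor of hepatocyte growth factor, and St7 (0.96), but without 546-A these were 0.36, 0.40 and -0.04. These r values were picked as the highest of many and share arrays, and no p is given.

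Genes that act with chemokines lay on both sides. Of 7 measured relatives and atypical receptors, the scavenging receptor gene Ackr1 (0.44 ± 0.13) lay on the Myc side, Ackr3 (-0.86 ± 0.20), which takes up Cxcl12, and Cklf (-0.60 ± 0.22) on the opposite side, while the other 4 did not pass. Of 27 measured genes of receptor signalling and ligand processing 6 stood toward the Myc side, led by Rgs16 (2.19 ± 0.32), a brake on G protein signalling, and Vav1 (1.40 ± 0.25), and 6 on the opposite side, led by Tpst1 (-1.19 ± 0.16), which sulfates receptor tyrosines, and Gng2 (-0.94 ± 0.22). The other 15 did not pass, and the list median was 0.005. Over all probes tested 23% were called toward the Myc side and 13.6% toward the opposite side, so the 6 of 27 on the Myc side lay near the share over all probes.

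Counts for the Myc side, the opposite side and no call were 4, 0 and 19 of 23 interferon response genes (Gbp2 at 1.24, Gbp3 at 1.04), and 2, 9 and 8 of 19 NF-kB and cytokine genes (Vcam1 at -2.57, Csf1 at -2.35, Tnfrsf1a at 0.53, Il1rn at 0.42). For leukocytes they were 9, 2 and 7 of 18 macrophage genes (C1qc at 2.91, Fcgr3 at 2.20, Msr1 at -1.12, Marco at -0.63), 3, 0 and 5 of 8 neutrophil genes (S100a9 at 1.49, Mpo at 0.65), 2, 5 and 10 of 17 T and NK cell genes (Cd4 at 1.20, Cd8b1 at 0.82, Cd3e at -2.17, Cd28 at -1.27), 0, 2 and 5 of 7 B cell genes (Cd79b at -2.65, Ms4a1 at -1.39), and 1, 1 and 4 of 6 dendritic cell genes (Itgax at 1.30, Fscn1 at -1.76). They were 1, 11 and 6 of 18 fibroblast and matrix genes (Postn at 2.18, Lox at -3.45, Pcolce at -2.37), 8, 1 and 2 of 11 endothelial genes (Sox18 at 1.89, Cdh5 at 1.56, Cd34 at -1.45) and 16, 0 and 0 of 16 epithelial genes (Esrp1 at 5.30, Cldn3 at 4.76). These counts stand beside 23% of all probes called toward the Myc side and 13.6% toward the opposite side. Between extracts 10 interferon response genes and 11 fibroblast and matrix genes were called, beside the 5 chemokines and 2.71% of all probes.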

How the data were processed

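Dual-channel arrays of 15 mouse RNA extracts, each on 2 arrays with exchanged channels against 1 reference RNA, were analysed from the deposited value table. The authors deposited log2 ratios of the channels, a scale read from the values themselves; how they corrected background or normalized before depositing is not stated in the sources used here. The value 16.61 (8839 times) and 95268 blanks were treated as missing, which left 84.8%. Array medians ran from -1.14 to 0.415, so the deposited arrays were not centred. As deposited, arrays of one orientation correlated at a median r of 0.469 (channel 1) and 0.457 (channel 2), and paired arrays at -0.336 to 0.124. Arrays with the extract in channel 2 were therefore turned. Agreement within a pair would make its r as deposited clearly negative, so paired arrays agreed only weakly. The highest pair r (0.124) went against the turn. Arrays of different extracts in one orientation were, at their median, more alike than the paired arrays of 1 extract. No array was centred, and paired arrays were averaged.

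Probes with values on at least 20 arrays and in at least 3 extracts were tested. The comparisons with the reference, of number 579 and of the progression description used limma 3.58.1 (lmFit, eBayes) in R 4.3.3. Differences between extracts used an F-test per probe on single arrays with a dye term, its variances moderated with limma's squeezeVar, and at least 3 residual degrees of freedom. P-values were adjusted over all probes by Benjamini-Hochberg. Relations used 100000 permutations in Python 3.11.15. The tests were two-sided, except the F-tests, and were tested on simulated data.

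Probe symbols come from the platform annotation: 16874 probes had 1 symbol, 134 several and 5792 were unlisted. Of the 45 members 44 matched RefSeq by gene ID and 1 by accession. No probe coordinates are given, since no source used here names the build the probes were mapped to. All members are named. Values by extract are given for members called between extracts and for the 6 largest means past the threshold on each side; likeness is given for called members, with 3 genes each, and lists with the 2 largest means past the threshold on each side. Members, lists and tests were chosen with earlier results of these data known. The number of arrays limits the precision. Alternatives were array centring, 1 orientation, other minimums of arrays, no dye term, extract number or title as a block, number means, and leaving out extracts.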

Additional observations from a re-analysis of the deposited data

Results flagged for a closer look

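Within the extracts of number 579 or the extracts of other numbers, each member's highest and lowest extract was compared with the rest by the size of its gap to the nearest value. Of 90 groups tested 11 held an extract that stood apart. The rate of about 1 in 20 by chance holds for equally precise values. Here some values rested on 1 array and others on 2, so the count cannot be set against that rate. Extract 546-A accounted for 4 of them, with Cxcl10 at 6.87 (next 0.51), Cxcl11 at 4.11 (next 0.64), Ccl4 at 2.30 (next -0.07) and Ccl7 at 0.79 (next -1.13). Each of these 4 rested on both arrays.

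Ccl3 stood apart in 579-B at 0.061, on 1 array, where the next extract of that number was at -3.11, and in 561-B at -5.01, on both arrays, next to -3.68. Ccl6 was low in 579-D at -1.08, beside 0.66 in the next extract, and the probe annotated to Ccl21c was low in 579-F at -1.66 on 1 array. Among receptors Ccr3 was low in 595-A at -1.94 and Ccr4 high in 595-A at 2.52, the second on 1 array. Cx3cl1 was low in 548-A at -1.26, with -0.09 in the next extract.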

How the results depend on the processing

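Of the 21 members past the threshold against the reference, 10 kept their side and call in each alternative run for them (centring, 1 orientation, array minimums, both arrays only, number or title block, number means, without 546-A with or without 548-A). Counts on the Myc side went to 4 with channel 1 alone and 17 with channel 2 alone, and on the opposite side to 17 with channel 1 alone; other alternatives gave 7 to 13 and 8 to 14. Among members past the threshold in the alternative or as reported, signs turned for Ccl20 (-1.15), Ccl21b (-1.47), Ccl22 (-0.83), Cxcl13 (-0.52) and Xcr1 (-1.30) in channel 1 and for Cxcr5 (0.83) in channel 2; the cause was not tested. In all, 14 of the 24 members that did not pass changed sign in some alternative. Members differing between extracts were 5 as reported, 4 after centring, 1 without the dye term, 9 under the stricter minimum (fewer probes tested), 0 with number as the factor, and 2 without 546-A and 548-A or, chosen after seeing the data, without 546-A alone. Over all probes these counts were 513, with 229 without the dye term, 801 under the stricter minimum, 298 without both extracts, 346 without 546-A and 12 with number as the factor. The 579 and progression comparisons gave 0 members in each alternative, extracts left out in turn included; over all probes 27 were called without 561-B. Of the relations with list means, 9 as reported became 11 after centring, 7 without 546-A, 3 over number means and 1 without 546-A and 548-A, both with fewer points, and Ccl24 with B cell genes turned to -0.20 across different arrays. No label names pairs of extracts between the groups compared, so no paired comparison of groups was run. Channel intensities were not used here, so signal over background is unknown.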
